A study of Mus musculus with 3 samples.

Results

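The genes described here are 10 genes of pluripotency and of the germ line, chosen by symbol from all the features counted in each embryo (10 of 31054): Pou5f1, Nanog, Utf1, Dppa3, Dnd1, Nanos3, Prdm1, Prdm14, Tfap2c and Kit. All 10 symbols were found, each as 1 feature. The question was in which cells of the embryo each gene was still found, and whether it lay mainly in germ cells or lingered in the caudal epiblast and in other lineages.

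Pluripotency is held in the epiblast by a small network of transcription factors around Pou5f1 (Oct4), Sox2 and Nanog, which is shut down as cells enter the germ layers. Primordial germ cells, the founders of eggs and sperm, arise from the proximal epiblast in response to BMP signals. Prdm1 (Blimp1), Prdm14 and Tfap2c (AP-2 gamma) set up their programme, the somatic genes are repressed, and the pluripotency genes are kept or switched on again. At the stage studied the germ cells lie near the base of the allantois and the hindgut.

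The RefSeq table of promoters (GRCm38.p6) held windows of 300 bases, from 250 before to 50 after a transcription start, for 6 of the 10 genes: Kit, Nanog, Utf1, Nanos3, Prdm1 and Pou5f1. The last 100 bases before the start are shown for Nanog and Pou5f1, which were found far outside the germ line. They are also shown for Nanos3, which helped set the germ cells and had a larger share of its UMIs there. They lie at chr6:122707389-122707488 on the plus strand, chr17:35505932-35506031 on the plus strand and chr8:84176553-84176652 on the minus strand. Capitals in the Nanog sequence mark an octamer core (TTTGCAT) joined, after any base, to a Sox element (ACAATG), the kind of element that Pou5f1 and Sox2 bind together, and capitals in the Pou5f1 sequence mark a GC box (GGGCGG).
Nanog: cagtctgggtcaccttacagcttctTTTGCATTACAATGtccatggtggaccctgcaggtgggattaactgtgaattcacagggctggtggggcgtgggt
Pou5f1: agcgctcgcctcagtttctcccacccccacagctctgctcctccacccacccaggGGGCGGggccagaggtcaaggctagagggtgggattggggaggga
Nanos3: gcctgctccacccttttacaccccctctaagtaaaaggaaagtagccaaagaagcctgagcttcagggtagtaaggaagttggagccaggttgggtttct

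On either strand, the joined element was found in 2 of 32851 windows, 0.00609%, and both were windows of Nanog, whose starts lie 75 and 151 bases after the first base of the element. The octamer core alone, which the joined element contains, was in 4.63% of the windows, and among those of these genes only in the windows of Nanog. A GC box was in 35.7% of all windows. It was found 45 bases before the upstream start of Pou5f1, in the windows of Kit and Utf1, and 216 bases before the start of Nanos3, outside the stretch shown. These are matches of letters, and binding was not measured.

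The data are single-cell counts from 3 wild-type (WT) mouse embryos, crosses of C57BL/6 and 129 SvEv. The embryos were at embryonic day 8 with at most 1 somite by the protocol (one label allows 2). The authors removed the extraembryonic tissue, but 291, 1280 and 1009 cells with extraembryonic endoderm markers were found in embryos 1, 2 and 3. Each embryo was dissociated and sequenced as 1 library, so the embryo is the replicate, n = 3, and no other genotype or treatment was measured. A count is a unique molecular identifier (UMI), 1 captured molecule near the 3' end of a transcript, and a level is given as CPM (the UMIs of a gene scaled to a common library total) and is summed over the cells of a class, with the SD over embryos. After quality control, 5795, 7956 and 7844 cells remained, with a median of 27635, 14615 and 16332.5 UMIs. Between 10 and 18 cell barcodes occurred in both libraries of a pair.

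Germ cells were set as cells with at least 1 UMI of Dppa3 and at least 1 of Dnd1 or Nanos3, which gave 55, 24 and 64 cells, 143 of 21595. Caudal epiblast cells (1313) had Nkx1-2 and at least 3 of 5 caudal markers. The 12 other lineages were set in the same way by at least 3 of 5 markers of their own, and 5527 cells fell into no class. The markers of neural plate were Sox1, Pou3f1, Otx2, Ptn and Crabp2. The authors also used Otx2 to define a cluster of anterior epiblast, and whether the neural plate class holds such cells was not tested. Erythroid cells were 2, 787 and 282, so that embryo 1 had no erythroid value and the erythroid means rest on 2 embryos. Dppa3, Dnd1 and Nanos3 set the germ cells and are therefore described there without a test.

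Whether the gate of 1 UMI held germ cells alone was not settled. Of the 143 cells, 101 (70.6%) also carried at least 3 of 5 markers of a somatic lineage. Caudal epiblast (46 cells), neural plate (43) and extraembryonic mesenchyme (37) were the most frequent. Most of the 21595 cells carried such a panel too, as 5527 fell into no class, so a panel alone does not tell which gated cells are not germ cells. In 52 cells Dppa3 was at 1 UMI, and of the 34 cells with 1 UMI of Dppa3 and 1 of Dnd1 and Nanos3 together, 33 carried such a somatic panel. Ifitm3 (Fragilis), an early surface marker of germ cells that the gate did not use, was at 158 ± 58.7 CPM (SD, n = 3) in cells with 1 UMI of Dppa3 and at 779 ± 142 CPM in cells with 4 or more, against 31.1 ± 5.93 CPM in the caudal epiblast. In the 34 cells Ifitm3 was at 67.5 ± 5.68 CPM, and no Prdm14 UMI was counted in them. A stricter gate, at least 2 UMIs of Dppa3 and at least 2 of Dnd1 and Nanos3 together, left 21, 12 and 26 cells. Its values are given beside the main ones for the genes that neither gate used. The somatic panels remained in 33 of these 59 cells (55.9%). The top 6% of Scrublet (doublet) scores of each embryo took in 17 of the 143 gated cells and 8 of these 59. The part of doublets and of free RNA in the panels was not tested.

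**Figure D1:**
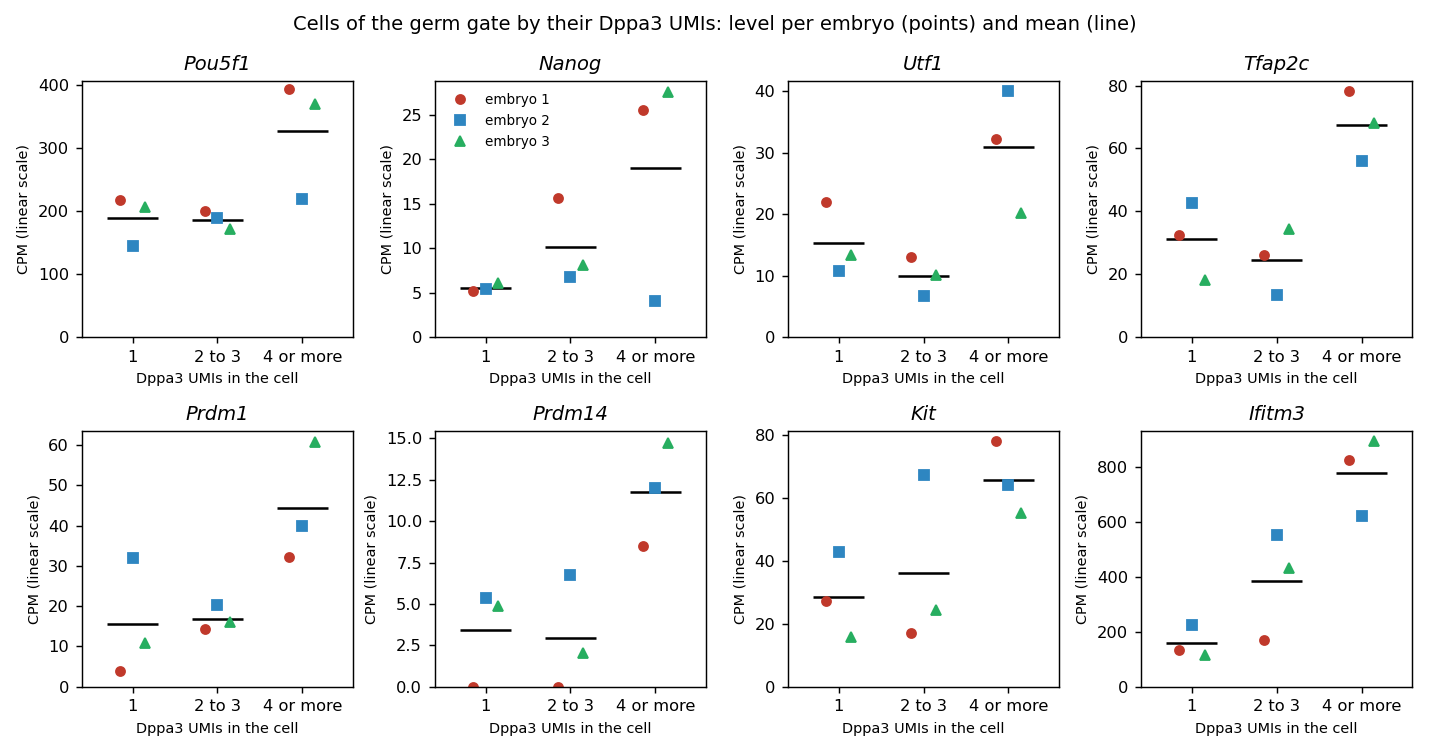
Level (CPM, linear scale) of 7 of the genes and of the germ cell marker Ifitm3 in cells of the germ gate, by the number of Dppa3 UMIs in the cell (52 cells with 1 UMI, 37 with 2 to 3, 54 with 4 or more); points are embryos and lines are means over embryos. Ifitm3, Prdm14 and Tfap2c were highest in every embryo in the cells with 4 or more Dppa3 UMIs, whereas Nanog in embryo 2, with 1 UMI in each group, was not.

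The cells with the most Dppa3 differed from the rest of the gate in most of these genes. From 1 UMI of Dppa3 to 4 or more, the mean of Tfap2c went from 31.1 to 67.4 CPM, of Prdm1 from 15.6 to 44.3, of Kit from 28.6 to 65.8 and of Pou5f1 from 189 to 328, and each of the 3 embryos went the same way. Nanog went from 5.53 to 19.0 CPM on the mean, with embryos 1 and 3 rising to 25.5 and 27.6 CPM and embryo 2 falling below its 5.34 CPM. The cells with 4 or more Dppa3 UMIs also held fewer UMIs in all, a median of 16258 against 29216.5. At least 4 of the 7 genes outside the gate had a UMI in 64.4% of the cells of the stricter gate and in 36.9% of the other gated cells, and in 7.69% of caudal epiblast, 8.47% of neural plate, 14.1% of surface ectoderm and 0 of 1071 erythroid cells.

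The share of a gene's UMIs that lay in germ cells ranged widely. Germ cells were 0.662% of cells and held 0.911% of all UMIs. They held 66.4% of the 840 Dppa3 UMIs, 37.8% of the 119 Nanos3 UMIs and 11.7% of the Dnd1 UMIs. For these gate genes the gate itself sets much of that share. Of the genes outside the gate, they held 38.3% of the 60 Prdm14 UMIs. They also held 5.55% of Tfap2c, 2.94% of Nanog, 2.81% of Prdm1, 2.64% of Kit, 1.99% of Utf1 and 1.72% of Pou5f1 UMIs. Neural plate, 15.5% of cells and 17.5% of all UMIs, held 50.6% of Nanog, 40.0% of Utf1, 27.9% of Pou5f1 and 21.9% of Tfap2c UMIs. The caudal epiblast, 6.08% of cells and 6.35% of all UMIs, held 16.3% of Pou5f1 and 16.9% of Tfap2c UMIs. Unassigned cells, 25.6% of cells and 26.8% of all UMIs, held 30.3% of Pou5f1 and 33.1% of Tfap2c UMIs.

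**Figure D2:**
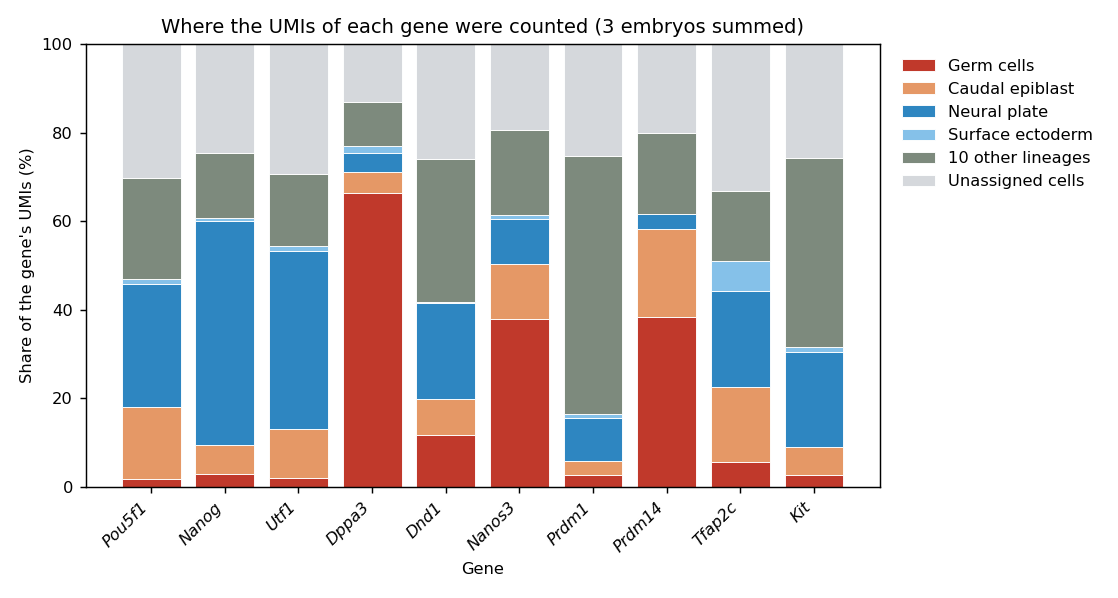
Share of each gene's UMIs (percent, 3 embryos summed) in germ cells, caudal epiblast, neural plate, surface ectoderm, the 10 other lineages and unassigned cells. Germ cells held 66.4% of the Dppa3 UMIs and 1.72% of those of Pou5f1, and neural plate held 50.6% of those of Nanog. Dppa3, Dnd1 and Nanos3 set the germ cells, so the gate sets much of their shares there.

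Pou5f1, the octamer-binding factor at the centre of the pluripotency network, was the most widely retained. Its level in the caudal epiblast was 379, 255 and 316 CPM in embryos 1, 2 and 3, and in germ cells 260, 188 and 245 CPM. The caudal epiblast thus had the higher value within each embryo, although the ranges of both classes overlapped. Presomitic mesoderm followed at 255, 188 and 244 CPM, neural plate at 234, 148 and 205 CPM and surface ectoderm at 250, 136 and 196 CPM. The ranges of these 5 classes overlapped from one to the next, although presomitic mesoderm was above neural plate in each embryo. In the stricter gate Pou5f1 was at 361, 219 and 286 CPM. Below them came the left-right organizer (113 ± 48.9 CPM), paraxial mesoderm (95.1 ± 20.0), allantois (57.0 ± 25.7), extraembryonic mesenchyme (45.2 ± 12.7), cardiac mesoderm (36.5 ± 10.7) and both endothelium and definitive endoderm (29.2). The lowest values were 17.6 ± 3.19 CPM in extraembryonic endoderm and 5.24 and 12.5 CPM in the erythroid cells of embryos 2 and 3.

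A Pou5f1 UMI was found in 98.4% ± 1.31 of caudal epiblast cells, 98.9% ± 0.984 of germ cells and 92.8% ± 5.84 of neural plate cells. Erythroid cells, which should lack the gene, had one in 7.10% of cells when pooled (4.96% in embryo 2 and 13.1% in embryo 3). Their median was 15300 UMIs, against 20979 in the caudal epiblast. With each cell thinned at random to 5000 UMIs, so that depth no longer differed, the shares were 77.8%, 72.1%, 60.1% and, pooled, 2.62% in the same order. Embryo 1 has no erythroid value. Cardiac cells, unthinned, had a Pou5f1 UMI in 43.4%, 19.1% and 34.2% of cells in embryos 1, 2 and 3. Embryo 2 had the lowest Pou5f1 level of the 3 in each of these 5 high classes. It also had the lowest median depth, and the part of depth in this was not tested.

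Nanog, the homeobox factor that guards the undifferentiated state, was at 14.6, 5.12 and 12.9 CPM in germ cells and at 13.5, 8.57 and 10.2 CPM in neural plate. The means, 10.9 and 10.8 CPM, were alike and the ranges overlapped, the germ cell value of embryo 2 resting on 3 UMIs. Surface ectoderm had 3.58, 3.43 and 9.99 CPM and the caudal epiblast 5.60, 2.13 and 2.86 CPM, both below neural plate within each embryo. In shares of cells, Nanog was in 31.5% of germ cells (45 of 143), 23.3% of neural plate (780 of 3343) and 8.45% of caudal epiblast cells (111 of 1313), against 3 of 1071 erythroid cells (0.280%). Thinned, these were 7.80%, 6.17%, 1.53% and 0.0935%. In the stricter gate Nanog was at 30.3, 7.43 and 20.3 CPM, above neural plate in embryos 1 and 3 but not in embryo 2, which had 2 UMIs.

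Utf1, a chromatin-bound factor of undifferentiated cells, had 4 high classes. Neural plate was at 19.4, 18.4 and 20.8 CPM, germ cells at 21.6, 22.2 and 14.5, surface ectoderm at 16.7, 21.7 and 12.8 and caudal epiblast at 16.1, 13.9 and 14.4 CPM. All 4 overlapped with the next in order. A gap followed, since every embryo's caudal epiblast lay above every embryo's presomitic mesoderm (3.56, 4.06 and 8.27 CPM). Erythroid cells had a Utf1 UMI in 0.560% of cells, and caudal epiblast in 26.4%. Utf1 was at 27.3, 37.1 and 18.9 CPM in the stricter gate.

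Among the factors that specify germ cells, Prdm1, a zinc finger repressor of the somatic programme, was at 15.5, 32.4 and 26.9 CPM in germ cells and at 2.96, 3.39 and 4.80 CPM in the caudal epiblast, with no overlap. Definitive endoderm (29.2, 25.5 and 21.2 CPM) overlapped with this gate. The stricter gate had Prdm1 at 31.9, 44.6 and 34.8 CPM, above every embryo's definitive endoderm. A UMI of Prdm1 was in 45.5% of germ cells and in 36.5% of definitive endoderm cells, 6.17% of caudal epiblast cells and 0.560% of erythroid cells. Paraxial mesoderm (10.8 ± 1.02 CPM), cardiac mesoderm (10.1 ± 1.20), surface ectoderm (9.81 ± 3.89) and extraembryonic endoderm (9.81 ± 0.959) formed a middle group, and presomitic mesoderm was near the bottom (1.10 ± 0.549).

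Prdm14, which acts in germ cells and naive pluripotent cells, had 60 UMIs in all. Germ cells held 5, 5 and 13 of them (2.35, 8.54 and 6.98 CPM) and caudal epiblast 7, 3 and 2 (0.461, 0.376 and 0.229 CPM). In surface ectoderm, left-right organizer, cardiac mesoderm, allantois and endothelium no UMI was counted. For the 149 surface ectoderm cells a count of 0 allows a share of up to 2.01% of cells with a UMI, which does not limit the cells that express the gene. Prdm14 was in 18 of 143 germ cells (12.6%) and 10 of 1313 caudal epiblast cells (0.762%), and in 1 of 1071 erythroid cells. Besides germ cells, the caudal epiblast was the only one of the 14 classes with a Prdm14 UMI in each embryo. Its level in the stricter gate was 4.55, 14.9 and 11.6 CPM.

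Tfap2c, an AP-2 factor of germ cells, trophoblast and surface ectoderm, was highest outside the germ line. Surface ectoderm was at 72.1, 60.6 and 68.5 CPM, germ cells at 42.8, 41.0 and 37.1, caudal epiblast at 16.6, 19.6 and 17.5, and neural plate at 7.88, 7.52 and 9.26 CPM. These 4 classes did not overlap, in that order. In the stricter gate germ cells were at 78.9, 44.6 and 50.8 CPM, which overlapped with surface ectoderm. Tfap2c was in 61.7% of surface ectoderm, 59.4% of germ, 27.1% of caudal epiblast and 0.467% of erythroid cells. After thinning the first 3 shares were 29.5%, 24.1% and 9.85%, and no erythroid cell kept a UMI. Tfap2a, another AP-2 gene, was among the 5 markers that set the surface ectoderm.

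Of the 3 genes of the gate, Dppa3 (Stella), a maternal and germ cell protein that protects DNA methylation in the early embryo, was at 106, 164 and 127 CPM in germ cells, a level the gate sets. Outside the gate, it was highest in surface ectoderm, with 5, 4 and 5 UMIs in 5, 4 and 4 cells (2.98, 4.58 and 7.14 CPM). That is 13 of 149 cells (8.72%), at a median of 19909 UMIs, against 1 of 1071 erythroid and 0 of 466 cardiac cells. In the cells left there, the lowest surface ectoderm embryo lay above the highest caudal epiblast embryo (1.12, 2.01 and 0.686 CPM). These values are remainders, since cells with Dppa3 together with Dnd1 or Nanos3 had been taken out of every lineage first. Of the gated cells, 46 carried the caudal epiblast panel and 16 that of surface ectoderm. The part of the gate in the order of lineages was not tested. Values of Dnd1 and Nanos3 below are remainders too. Thinned, 3.36% of surface ectoderm cells and 0.534% of caudal epiblast cells kept a Dppa3 UMI. Extraembryonic mesenchyme had 37 UMIs in 29 cells (1.88%).

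Dnd1, an RNA-binding protein needed for germ cell survival, was not limited to germ cells. Away from the gate it was in 14.1% of left-right organizer, 13.8% of neural plate, 13.1% of caudal epiblast and 12.5% of paraxial mesoderm cells, and in 2.89% of erythroid and 1.94% of extraembryonic endoderm cells. After thinning these were 3.20%, 2.97%, 2.90%, 2.40%, 0.654% and 0.234%. In all, 1924 of 21233 cells without Dppa3 (9.06%) had a Dnd1 UMI. Among the 362 cells with Dppa3 (median of 27270.5 UMIs against 18386 for cells without Dppa3), 38.4% had Dnd1 (139 cells).

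Nanos3, another RNA-binding protein of germ cells, was sparse, with 20, 7 and 18 UMIs in germ cells. Beyond the gate, caudal epiblast had 4, 3 and 8 UMIs in 14 of 1313 cells (1.07%), and neural plate had 12 UMIs in 3343 cells. In endothelium, erythroid and cardiac cells none was counted. For the 957 endothelial cells a count of 0 allows a share of up to 0.313% of cells with a UMI, which does not limit the cells that express the gene. Each gate gene was also read in cells set by the other 2. Dppa3 was present in 27 of 41 cells with both Dnd1 and Nanos3 (65.9%, 49.4 to 79.9% by the exact binomial interval), Dnd1 in 27 of 31 cells with Dppa3 and Nanos3 (87.1%, 70.2 to 96.4%) and Nanos3 in 27 of 139 cells with Dppa3 and Dnd1 (19.4%). The share of Dppa3 in cells lacking Nanos3 was 1.54%. Intervals and limits cover counting error only.

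Kit, the receptor for stem cell factor that germ cells, blood and pigment precursors use, was found in several lineages. Germ cells were at 37.6, 58.1 and 29.5 CPM, definitive endoderm at 32.1, 28.4 and 24.7, endothelium at 20.9, 32.9 and 30.2, allantois at 22.0, 16.9 and 21.9, surface ectoderm at 21.5, 25.2 and 9.99, and erythroid cells of embryos 2 and 3 at 18.2 and 14.1 CPM. The ranges of neighbours in this order overlapped, although germ cells were above definitive endoderm within each embryo. The stricter gate had Kit at 74.3, 78.0 and 37.7 CPM, above every embryo of definitive endoderm and endothelium. Caudal epiblast was at 12.5 ± 0.434 CPM, below germ cells in each embryo and above paraxial mesoderm (6.62 ± 1.33). The lowest was cardiac mesoderm (2.57 ± 0.626 CPM, in 3.22% of cells), which serves as the background here since erythroid cells use Kit. Kit was in 58.7% of germ, 41.1% of definitive endoderm and 24.0% of caudal epiblast cells, and after thinning in 21.3%, 14.6%, 5.04% and, in cardiac mesoderm, 0.429%.

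**Figure D3:**
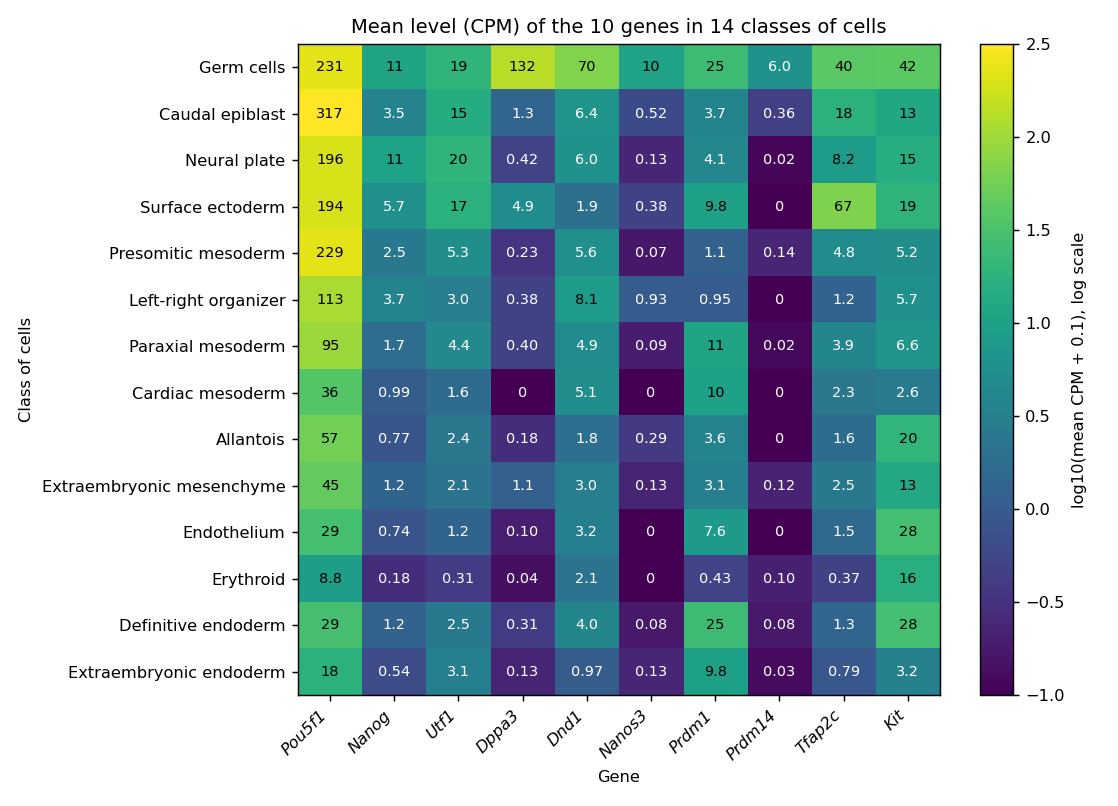
Mean level (CPM, numbers in the cells) of the 10 genes in 14 classes of cells, coloured on a log10 scale; means are over 3 embryos, or 2 for erythroid cells. Pou5f1 ran from 317 CPM in caudal epiblast to 8.8 in erythroid cells, while Dppa3, Nanos3 and Prdm14 were above 5 CPM in germ cells and below that in all other classes. Dppa3, Dnd1 and Nanos3 set the germ cells, and cells with Dppa3 and either of the others were taken out of all other classes.

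**Figure D4:**
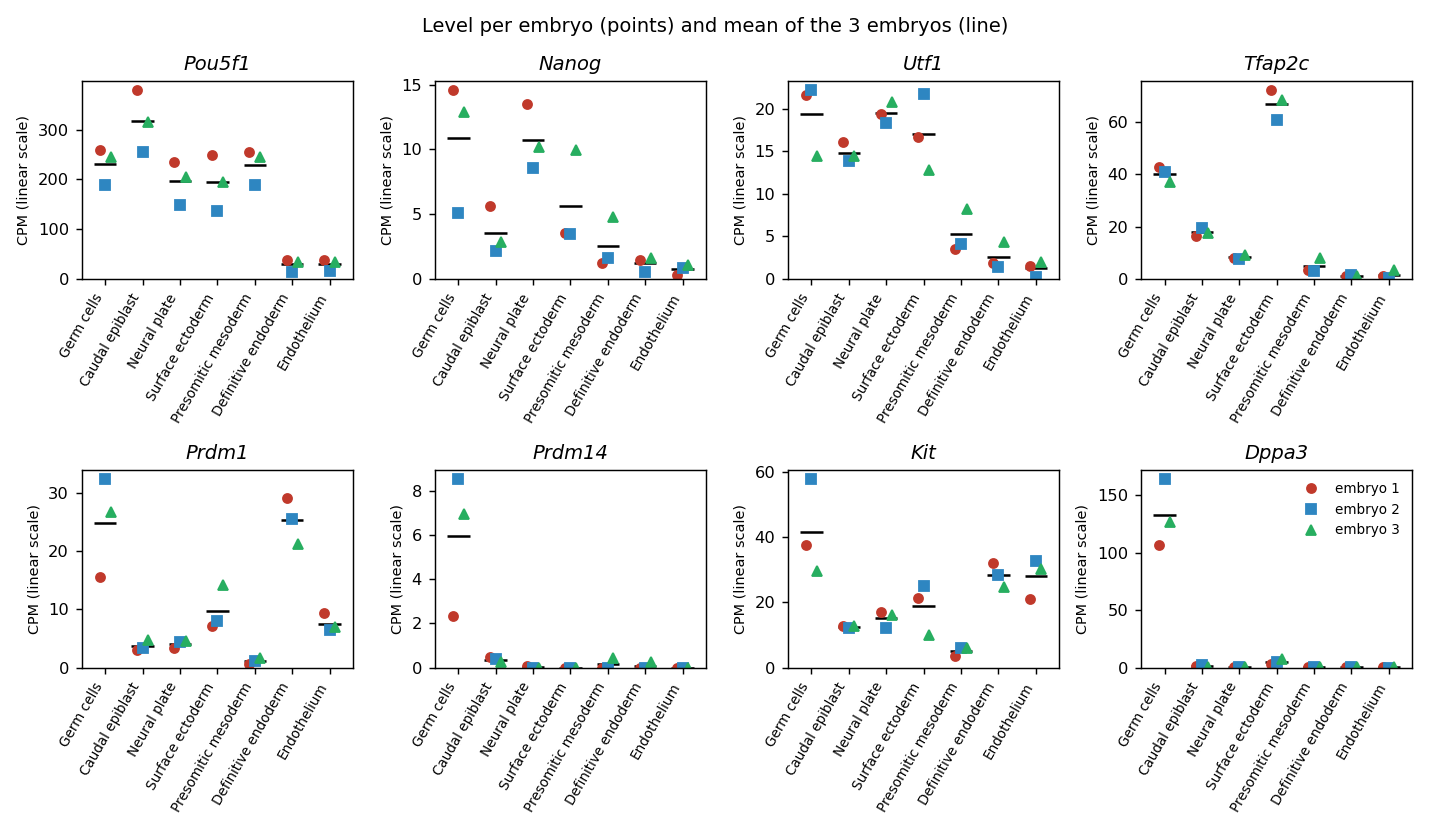
Level (CPM, linear scale from 0) of 8 of the genes in 7 classes, with 1 point per embryo and a line at the mean of the 3. Tfap2c separates surface ectoderm, germ cells, caudal epiblast and neural plate without overlap, Prdm1 is high in germ cells and definitive endoderm, and Nanog in germ cells and neural plate.

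The differences were tested on UMI sums per embryo and class with edgeR's quasi-likelihood test, with Benjamini-Hochberg adjustment over 14015 genes and a threshold of 0.05. Values after ± are standard errors of a log2 fold change here. In germ cells against caudal epiblast, 4 of 6 genes were higher and none was lower, where 6.39% of all genes tested were higher and 4.07% lower. The 6 leave out the genes of the gate and Prdm14, which had enough counts to be tested only through the germ cells. The 4 were Prdm1 (log2 fold change 2.64 ± 0.26, adjusted p = 3.26e-09), Nanog (1.71 ± 0.44, 0.00837), Kit (1.59 ± 0.24, 9.81e-06) and Tfap2c (1.16 ± 0.31, 0.00971). Each was higher in germ cells in 3 of 3 embryos. The fold change of Prdm14, 3.75, is given without a test, and the count filter favours its sign. Without embryo 3, Nanog no longer passed (adjusted p = 0.146), with a log2 fold change of at least 1.42 under every alternative, nor did Tfap2c without embryo 1 (1.04, 0.113) or embryo 2 (1.21, 0.0645).

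Pou5f1 (-0.44 ± 0.29, adjusted p = 0.409) and Utf1 (0.33 ± 0.34, 0.646) did not pass. With the embryo as a block, Pou5f1 was lower in germ cells (-0.50, adjusted p = 0.00489). Its sign depended on how the cells were set, and it was 0.74 (adjusted p = 0.148) when gated cells with a somatic panel were left out. In the stricter gate the fold changes over caudal epiblast were 3.25 for Prdm1, 2.51 for Nanog, 2.22 for Kit and 1.72 for Tfap2c. Those of Utf1 and Pou5f1 were 0.75 and -0.13. The same 4 genes passed among the 6, and Prdm14, without a test, was at 4.58.

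Against the mean of the 12 other lineages, which share the germ cell samples with the first comparison, all 6 genes were higher in germ cells, where 8.47% of all genes were. Tfap2c had 3.93 ± 0.28, Nanog 3.01 ± 0.41, Utf1 2.55 ± 0.33, Prdm1 2.33 ± 0.22, Pou5f1 2.00 ± 0.21 and Kit 1.81 ± 0.20 on the log2 scale, with adjusted p between 2.08e-13 and 9.44e-07. For Prdm14, with 5 lineages at 0 UMIs, neither a fold change nor a test is given.

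The caudal epiblast was then compared with the same 12 lineages, to ask which genes lingered there. Of the same 6 genes, 4 were higher and none was lower, where 15.3% of all genes were higher and 12.5% lower. Tfap2c had 2.77 ± 0.21 (adjusted p = 4.68e-13), Pou5f1 2.44 ± 0.17 (2.45e-14), Utf1 2.22 ± 0.21 (1.09e-10) and Nanog 1.30 ± 0.31 (0.00127) on the log2 scale. Dppa3, Nanos3 and Prdm14, with 39, 15 and 12 UMIs in the caudal epiblast, and Dnd1 are not tested here, since cells with Dppa3 together with Dnd1 or Nanos3 had been taken out of every lineage first and Nanos3 and Prdm14 were too low to be tested without the germ cells. Prdm1 (-0.31 ± 0.20, adjusted p = 0.276) and Kit (0.22 ± 0.16, 0.337) did not pass. Without embryo 1, Nanog was at 0.76 (adjusted p = 0.223).

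**Figure D5:**
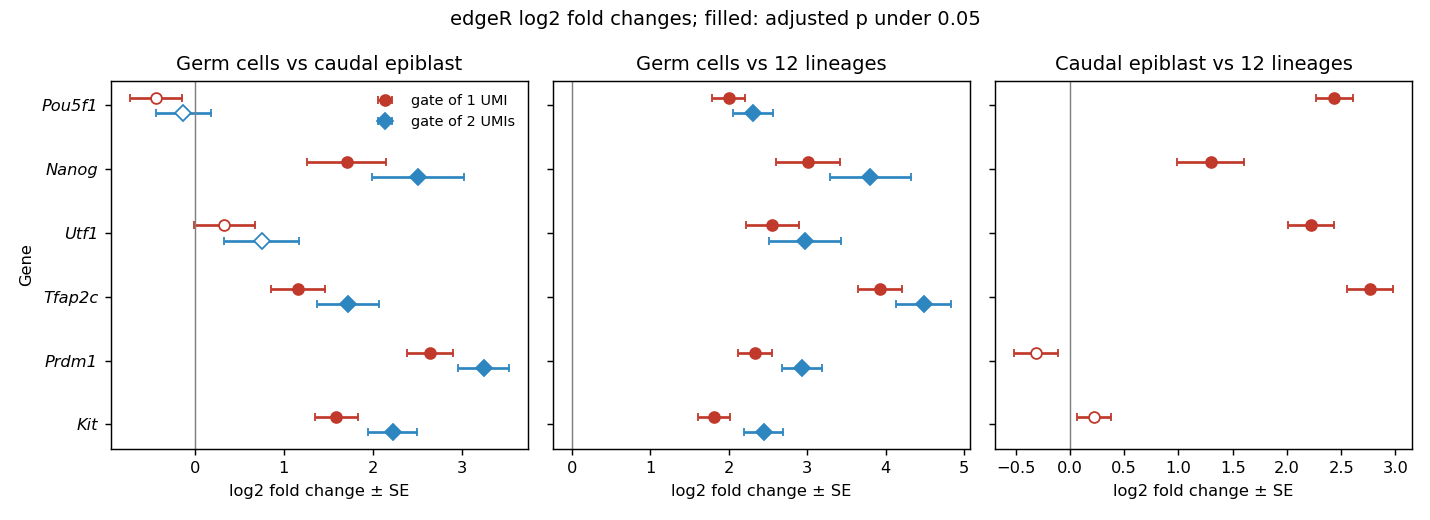
edgeR log2 fold changes with standard errors of 6 genes in germ cells against caudal epiblast, germ cells against the 12 other lineages and caudal epiblast against these; filled symbols passed an adjusted p of 0.05, circles are the gate of 1 UMI and diamonds the stricter gate. Pou5f1 and Utf1 are open in the left panel, and Prdm1 and Kit in the right one.

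Each of the 12 other lineages was set against the mean of the remaining somatic lineages, and some are detailed here. In neural plate 5 of the 6 genes were higher, where 19.3% of all genes were, led by Nanog (2.99 ± 0.23), Utf1 (2.67 ± 0.19), Pou5f1 (1.71 ± 0.18) and Tfap2c (1.59 ± 0.22), with adjusted p of 2.45e-07 or less. In surface ectoderm 5 were higher (background 7.21%), with Tfap2c at 4.84 ± 0.26 (adjusted p = 1.04e-16), Utf1 at 2.44 ± 0.39 (1.69e-05), Pou5f1 at 1.69 ± 0.24 (1.47e-06), Prdm1 at 1.10 ± 0.33 (0.0200) and Kit at 0.92 ± 0.27 (0.0174). In presomitic mesoderm Pou5f1 was higher (1.95 ± 0.18), 1 of 6 genes where 13.8% of all genes were, and Prdm1 (-2.33 ± 0.32) and Kit (-1.23 ± 0.23) were lower, where 10.4% were. In definitive endoderm Prdm1 (2.69 ± 0.14) and Kit (1.47 ± 0.15) were higher, 2 of 6 where 26.2% of all genes were, and Pou5f1 and Tfap2c were lower, where 19.7% were. In endothelium Kit (1.51 ± 0.15) and Prdm1 (0.88 ± 0.19) were higher (background 23.2%) and Pou5f1 and Utf1 lower (background 18.5%). In erythroid cells Kit alone was higher (adjusted p = 1.37e-05, background 30.1%), and Pou5f1, Nanog, Utf1, Prdm1 and Tfap2c were lower, 5 of 6 where 33.3% of all genes were. In the lineages not detailed, Prdm1 was higher in paraxial mesoderm, cardiac mesoderm and extraembryonic endoderm. Pou5f1 was higher in left-right organizer and paraxial mesoderm, and Kit in allantois. Lower calls there fell on Pou5f1, Nanog, Prdm1, Tfap2c and Kit. Of all 14015 genes, 1711 (cardiac mesoderm) to 5214 (extraembryonic endoderm) were higher in these lineages and 1237 to 4476 lower. With so few genes, 1 or 2 of 6 in a lineage is near its background.

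Other genes of the same programmes were counted from lists, and each count is set beside the median log2 fold change of all genes tested, which was 0.0083 or less in size. In germ cells against caudal epiblast, 7 of 18 other pluripotency genes tested were higher and 2 lower (list median 0.47). Of all genes tested there, 6.39% were higher and 4.07% lower. Gdf3, a TGF-beta family ligand of pluripotent cells, was at 17.9, 22.2 and 17.7 CPM in germ cells and at 0.592, 0.376 and 0.686 in caudal epiblast (log2 fold change 5.01 ± 0.48), with no overlap. Esrrb, a nuclear receptor of the naive state, was higher on few counts (0.940, 3.42 and 2.69 CPM against 0.0820 on the mean). Over the 12 other lineages the means of Gdf3 and Esrrb were 0.160 and 0.228 CPM. Like Prdm14, both may have had enough counts to be tested only through the germ cells, so their part in the 7 is no support. Fgf4 (-2.02 ± 0.43) and the RNA-binding Lin28a (-0.49 ± 0.15) were lower. Of 10 formative and primed epiblast genes 5 were lower and none higher (median -0.42), led by the ETS factor Etv4 (28.7 against 119 CPM) and N-cadherin, Cdh2 (19.2 against 51.3 CPM). In the caudal epiblast against the 12 lineages, 9 of these 10 and 10 of the 18 other pluripotency genes were higher, where 15.3% of all genes were.

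Of 11 early germ cell surface and partner genes 6 were higher in germ cells than in caudal epiblast (median 0.80), where 6.39% of all genes were. Ifitm3 was at 338, 476 and 426 CPM against 30.8, 25.3 and 37.2 CPM (3.70 ± 0.14, adjusted p = 1.83e-21). Of 18 later germ cell genes, most of which act in the gonad and meiosis, 7 had enough counts to be tested (median 0.86). Of these Stk31 alone was higher (2.82 against 0.184 CPM), on few counts, where 6.39% of all genes were. Genes of this list may have been testable only through the germ cells, so its median and the call of Stk31 are no support. Of 11 genes for DNA and histone methylation 3 were lower and none higher (median -0.18), where 4.07% of all genes were lower. Among them were Tet3 (29.2 against 52.0 CPM, -0.82 ± 0.12) and Ehmt1 (104 against 141 CPM, -0.45 ± 0.10). Of 11 genes of the posterior mesoderm programme 7 were lower in germ cells and none higher (median -0.98), including Cdx1 (164, 116 and 119 against 595, 531 and 446 CPM) and Cdx4 (47.7 against 134 CPM). Against the 12 lineages, though, 6 of the 11 were higher in germ cells, where 8.47% of all genes were. The caudal epiblast was itself set by caudal markers, and 46 of the gated cells carried its panel. The part of this in the 2 counts was not tested. Cxcl12 is the ligand of the receptor Cxcr4 that guides germ cells. It was higher in the gated cells than in caudal epiblast (72.5 ± 16.2 against 15.7 ± 4.24 CPM). As 37 of the gated cells carried the extraembryonic mesenchyme panel, which of them held Cxcl12 was not tested.

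Dppa3, Nanog and Gdf3 lie close together on chromosome 6 (GRCm38, GENCODE), Gdf3 at chr6:122605403-122610087, Dppa3 at chr6:122626410-122630272 and Nanog at chr6:122707489-122714633, with 77.2 kb between the last 2 genes. Slc2a3, a glucose transporter gene next to Nanog, was also higher in germ cells than in caudal epiblast (738 ± 82.3 against 345 ± 37.6 CPM, SD). Its log2 fold change was 1.08 ± 0.16 (edgeR, adjusted p = 1.30e-05). With Gdf3, 2 of the 3 neighbours tested were higher, where 6.39% of all genes were. Gdf3 may have been testable only through the germ cells, so this count is no support. The remaining genes lie on other chromosomes. Pou5f1 is at chr17:35506018-35510772, Utf1 at chr7:139943789-139945112, Nanos3 at chr8:84173731-84185217, Prdm1 at chr10:44437177-44528501, Prdm14 at chr1:13113457-13127163, Tfap2c at chr2:172549593-172558622 and Kit at chr5:75574916-75656722.

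Outside the lists, the largest fold changes in germ cells over caudal epiblast with the same sign in every embryo were those of Rhox9 (a reproductive homeobox gene, 11.6 ± 7.33 against 0.0381 ± 0.0660 CPM, SD), Gm11747, Ermn, Oasl2 and Thbs1, with means of 2.17 to 11.6 CPM. They rest on few counts, with Gm11747 and Thbs1 at 1.71 CPM in the germ cells of embryo 2. Over the 12 other lineages Rhox9, Gm11747 and Oasl2 had means of 0.178, 0.0363 and 0.0304 CPM. These genes too may have been testable only through the germ cells. The largest downward were Galnt17, Prdm13, Acsbg1, Lrrtm4 and Lrmp, all at 0 in the germ cells and at 1.49 to 3.90 CPM in caudal epiblast. A count of 0 in the germ cells allows up to 1.41, 5.12 and 1.61 CPM in embryos 1, 2 and 3. In embryo 2 that limit is above all these caudal epiblast means. The largest upward in caudal epiblast over the 12 lineages were Jakmip3, Prdm13 and Btla.

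As a description of likeness, Pearson correlations of log2(CPM + 1) over the 14 class means were computed, where all points share the same 3 libraries. Nanog and Utf1 were alike (r = 0.926), and Pou5f1 was near both (0.837 and 0.865). Dppa3, Nanos3 and Prdm14 formed another set (0.933 to 0.959), in which the gate has its part. Prdm1 and Kit had the lowest values with Pou5f1, 0.0357 and 0.0748. The 3 genes most like each were Jade2, Npas3 and Gna14 for Pou5f1 (0.952 to 0.971), Gm32585, Dtx3l and Sox2 for Nanog (0.941 to 0.966), Dtx3l, Dtx1 and Sox2 for Utf1 (0.929 to 0.948) and Dync1i1, 4930566F21Rik and Dpys for Tfap2c (0.936 to 0.946). For Dppa3 they were Parp14, Gbp3 and Gdf3 (0.944 to 0.982), for Prdm14 Gdf3, Oasl2 and Gm31659 (0.976 to 0.985), for Nanos3 Gm11747, Prdm14 and Gdf3 (0.955 to 0.980) and for Dnd1 Syp, Gm11747 and Atp10a (0.884 to 0.897). Prdm1 was most like Cpne8, Zfp628 and Lypla2 (0.813 to 0.893), and Kit most like Cdc42ep5, Ifitm3 and Pelp1 (0.772 to 0.840).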

How the data were processed

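Single-cell RNA was measured in 3 WT embryos. The authors aligned the reads with Cell Ranger 3.1.0 to mm10 and deposited raw UMI counts per feature and barcode, without normalization. The 10 genes, the marker panels, the cell limits and the gene lists were chosen with earlier results of these data known. Barcodes with 1500 to 8500 genes (7500 in embryo 2) and 0.5 to 10% mitochondrial UMIs were kept, 21595 of 23533. The lower limit stands in for the clusters of low mitochondrial content that the authors removed. Scrublet in scanpy 1.11.5 called 2 doublets and was not used as a filter in the main analysis. Germ cells were taken first. A lineage needed 3 of 5 markers and more than any other lineage, and ties were left unassigned. Counts were summed per embryo and class (at least 5 cells) and fitted with edgeR 4.0.16 in R 4.3.3 (TMM, filterByExpr, glmQLFit), all 14 classes in 1 fit. Standard errors came from the F statistic. The spread is between 3 embryos. The embryo pairs the sums, since they come from the same animal, and across genes the deviations of both sums of an embryo had correlations of 0.165 to 0.259. The blocked value is given where it changed a call. Counts of called genes among the 10 leave out the gate genes and Prdm14. This was chosen after seeing the data, since Prdm14 did not pass the count filter in the fit without germ cells. Counts and shares over all genes tested take every gene past the count filter, those that set the classes included.

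Genes named besides the 10 were, of each list, up to 2 higher and 2 lower genes with the largest change in germ cells against caudal epiblast and the same sign in every embryo. Outside the lists, the 5 largest each way there and the 3 largest upward in caudal epiblast against the 12 lineages were named, and the 3 genes most like each of the 10. One gene that this rule names is not reported here. In simulated germ cell against caudal epiblast sums, 86.0% of genes raised 4-fold and 56.0% of those raised 2-fold, 70.0% of those lowered to 0.25-fold and 42.0% of those lowered to 0.5-fold were recovered among 13797 genes. The alternatives were no count filter, RLE size factors, DESeq2 1.42.0, omission of each embryo, a block for the embryo, fewer classes in the fit, thinning to 5000 UMIs, other gates and panels, other cell limits and removal of the top Scrublet scores. A germ gate on thinned counts was chosen after seeing the data. Coordinates came from GENCODE release 21 (GRCm38), in which 30934 of 31054 features were found by identifier, and promoters from RefSeq.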

Additional observations from a re-analysis of the deposited data

How the results depend on the processing

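The main counts were 1466 genes (896 higher, 570 lower) for germ cells against caudal epiblast, 1819 for germ cells against the 12 other lineages and 3894 for caudal epiblast against these. With cells thinned to 5000 UMIs they were 658, 737 and 2155, and with Nkx1-2 of at least 2 UMIs alone setting the caudal epiblast the first was 884. Leaving out an embryo gave 586 to 1009, 903 to 1160 and 2624 to 2830 genes. The first was 797 without embryo 2 and 586 without embryo 3, and the second was 1160, 1157 and 903 without embryos 1, 2 and 3. The other alternatives stayed within 1.5 times of the main counts, the embryo as a block included, with 2100, 2391 and 5349. The balance of higher and lower calls in the first comparison also moved. Thinned cells gave 301 higher and 357 lower and the stricter gate 659 and 665. Without gated cells carrying a somatic panel 800 genes were higher and 1066 lower than in caudal epiblast, and the median of all genes moved to -0.24 on the log2 scale. Under the gate on thinned counts (41 cells) these were 504, 755 and -0.18.

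The fold changes of the 6 genes tested were recomputed under 18 alternatives in each comparison. Most kept their direction and their side of the threshold. Only Nanog and Tfap2c lost a call, each on leaving out an embryo, and only Pou5f1 and Kit gained one. Prdm14, given without a test, had log2 fold changes of 3.18 to 5.65 in the first comparison. It had enough counts only through the germ cells, so a steady sign is no support. The sign of Pou5f1 in germ cells against caudal epiblast, which was not past the threshold, turned without gated cells carrying a somatic panel (0.74), with Nkx1-2 alone (0.0104) and with the gate on thinned counts (0.30). Pou5f1 passed as lower there with the embryo as a block and with no count filter, and Kit passed as higher in caudal epiblast with Nkx1-2 alone and with a lead of 2 markers. The blocked fit changed no other call of the 6 genes in these comparisons. The cause of these changes was not tested. Dppa3, Nanos3 and Prdm14 rest on 840, 119 and 60 UMIs in all, which limits what can be said of them outside the germ cells.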
